A study of Mus musculus with 18 samples.

Results

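The 6 genes described here are S100a8, S100a9, Camp, Ngp, Ltf and Mpo, which encode 2 calgranulins and 4 proteins of neutrophil granules. They were found by name: every probe set annotated to exactly 1 of these symbols, or to a synonym of it, was kept, and the median log2 of these probe sets was taken as the gene value for each array. All 6 were measured, with 46 probe sets between them, among 20352 genes in all. The samples are 18 one-colour oligonucleotide arrays of total RNA from the caudal corpus callosum, a white matter tract, of C57BL/6 mice that were either TREM2-/- (KO) or wild type (WT). All mice were fed 0.2% CPZ (cuprizone), a copper chelator that kills oligodendrocytes, and no array of mice without it is used here. There were 3 KO and 4 WT arrays at the 6 weeks stage and 6 KO and 5 WT arrays at the 12 weeks stage. Whether a stage gives mouse age or feeding time is not settled by the labels. Nor do they tie each array to its own mouse, and the spread behind the p-values may therefore be partly technical. The labels name no Cre or cell type for the KO.

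S100A8 and S100A9 are small calcium-binding proteins that pair to form calprotectin, which fills much of the neutrophil cytosol, binds zinc and manganese and, once released, acts on TLR4 and RAGE. Neutrophils pack their other defence proteins into granules in the order in which they mature. Myeloperoxidase is made first, for azurophil granules, and lactoferrin, cathelicidin and the neutrophilic granule protein follow in specific granules, so the transcripts of Mpo, Ltf, Camp and Ngp are most abundant in bone marrow precursors, while those of the calgranulins persist in circulating neutrophils and also occur in monocytes.

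S100a8 and S100a9 lie next to each other among the protein-coding genes of chromosome 3, Camp, Ngp and Ltf lie apart from each other on chromosome 9, and Mpo lies on chromosome 11. The promoters of both calgranulins, of Camp and of Ngp are shown because the calgranulins are the members that varied most together and Camp and Ngp are the granule genes that differed most between KO and WT at 12 weeks. Each runs from 250 bases before to 50 after the annotated gene start, 5′ to 3′ on the strand of the gene, from RefSeq on GRCm38.p6. Capitals mark matches, on either strand, to TTGNNNAA (a core of sites bound by C/EBP factors, which drive granulocyte maturation), TATAAA (the TATA box) and GAGGAA (a core of sites bound by PU.1, the product of Spi1).
S100a8, chr3:90668821-90669120, plus strand: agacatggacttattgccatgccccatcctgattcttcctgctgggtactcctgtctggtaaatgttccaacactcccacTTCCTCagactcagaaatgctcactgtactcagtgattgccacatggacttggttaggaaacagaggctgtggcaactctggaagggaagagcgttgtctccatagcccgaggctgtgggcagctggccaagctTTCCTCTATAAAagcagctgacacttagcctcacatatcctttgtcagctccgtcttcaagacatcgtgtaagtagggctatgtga
S100a9, chr3:90695672-90695971, minus strand: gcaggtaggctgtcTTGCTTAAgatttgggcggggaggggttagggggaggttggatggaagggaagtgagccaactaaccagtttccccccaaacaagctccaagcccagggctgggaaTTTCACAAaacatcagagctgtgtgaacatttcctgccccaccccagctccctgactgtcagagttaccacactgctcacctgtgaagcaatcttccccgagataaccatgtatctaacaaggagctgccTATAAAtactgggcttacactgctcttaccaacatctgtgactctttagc
Camp, chr9:109849407-109849706, minus strand: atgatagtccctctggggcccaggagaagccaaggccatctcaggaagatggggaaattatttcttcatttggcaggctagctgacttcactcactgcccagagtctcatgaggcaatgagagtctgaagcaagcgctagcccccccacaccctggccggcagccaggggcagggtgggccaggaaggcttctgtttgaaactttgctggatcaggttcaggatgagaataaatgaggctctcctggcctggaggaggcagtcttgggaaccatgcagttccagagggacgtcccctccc
Ngp, chr9:110419558-110419857, plus strand: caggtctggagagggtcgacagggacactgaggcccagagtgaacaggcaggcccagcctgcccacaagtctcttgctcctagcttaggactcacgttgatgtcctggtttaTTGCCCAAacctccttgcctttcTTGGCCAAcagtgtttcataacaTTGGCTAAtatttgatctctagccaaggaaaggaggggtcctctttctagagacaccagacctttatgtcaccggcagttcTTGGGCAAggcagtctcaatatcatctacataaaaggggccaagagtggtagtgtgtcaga

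The Ngp window held TTGNNNAA at 4 places, the S100a9 window at 2 and the Ltf window, which is not printed, at 1. TATAAA occurred once in each calgranulin window, at −30 from the annotated gene start in S100a8 and on that start itself in S100a9. In S100a8 it directly follows one of 2 GAGGAA matches, so that the capitals of both run together. GAGGAA was also found at 1 place in the Ltf and at 2 in the Mpo window, and Camp held none of the 3 motifs. Thus 3 of the 6 members held TTGNNNAA, 2 TATAAA and 3 GAGGAA, against 36.7%, 13.6% and 28.3% of 32851 RefSeq promoter windows of this length. Such matches describe letters in a window and not binding.

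Of the 6 gene values, those of the calgranulins varied most from array to array. Averaged over the 18 arrays the gene value (log2 signal, here and below) of S100a9 was 5.15 and ran from 3.62 to 7.04, and that of S100a8 was 4.49 and ran from 3.24 to 5.94. The pooled SD within groups was 0.73 for S100a9 and 0.70 for S100a8, against a median of 0.36 over the 16281 genes tested. Each calgranulin value is a median of 2 probe sets, against 4 to 19 for the granule genes and a median of 8 over all genes. A median of few probe sets can vary more, and the part of this in the spread was not tested. In WT at 12 weeks the largest SD of a single probe set was 1.54 for S100a9 and 1.37 for S100a8. It was 1.54 for Ngp, 1.31 for Mpo, 1.26 for Ltf and 0.70 for Camp. The mean gene values of the 4 granule genes stayed near the level of the filter on low values in every group. Their single probe sets had unequal means, from 2.59 to 6.42 for Camp and from 2.87 to 4.08 for Ngp. For Ltf these ran from 2.13 to 5.73 and for Mpo from 1.95 to 5.44. Genes with a mean of 3.41 or less, the lowest 20%, were left out of the test, and Ngp (mean 3.27) and Ltf (mean 3.37) fell among them, so 4 of the 6 members were tested. Camp (mean 3.50) and Mpo (mean 3.65) lay just inside that level. Values for Ngp and Ltf come from the same model fitted without the filter. Signals of different genes come from different probes and are not a measure of relative transcript number.

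The label of a neutrophil gene set was checked against other neutrophil markers, several of which lay below the filter on low values. Of 17 measured surface and cytosol genes of neutrophils, 6 passed the filter. Ly6g, the surface protein that defines mouse neutrophils, lay between 2.09 and 2.81 in the 18 arrays. The chemokine receptor gene Cxcr2 lay between 2.04 and 3.31, the resistin-like gene Retnlg between 2.28 and 4.33 and the collagenase gene Mmp8 between 2.13 and 3.72, and all 4 of these markers had means below the filter level. Csf3r, the G-CSF receptor gene, lay higher, at 5.26 to 7.93, and is also expressed by microglia. Of 3 measured azurophil granule genes beside Mpo, Prtn3 alone passed the filter. Of 8 other measured genes of specific and gelatinase granules, 6 passed it, among them Lcn2 at 3.69 to 7.40, the peptidoglycan recognition gene Pglyrp1 at 4.46 to 6.60, the haptoglobin gene Hp at 2.97 to 6.00 and the surface protein gene Cd177 at 3.64 to 4.96. Array background levels are not used here, so which of these signals lie above background is not stated. In RNA from whole tissue, fewer cells of a type and less RNA per cell cannot be told apart.

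Trem2, the targeted gene, averaged 5.80 ± 0.33 in KO and 7.29 ± 0.83 in WT at 6 weeks (SD, n = 3 and 4), and 5.27 ± 0.30 in KO and 7.36 ± 0.48 in WT at 12 weeks (SD, n = 6 and 5), in the direction of the labels. The replicate 1 array of WT at 12 weeks stood apart in the genes described here. It was the highest of the 18 arrays for S100a9, Camp and Ngp, and also for 5.1% of all genes tested, an array chosen after its values were seen. It was also the lowest of the 18 in 2 of 7 microglia markers (Cx3cr1 and Csf1r) and in 3 of 5 white matter markers (the myelin genes Mag and Mobp and the astrocyte gene Gfap), against 7.22% of all genes tested. Differences of the members that involve WT at 12 weeks are therefore also given without it.

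**Figure D1:**
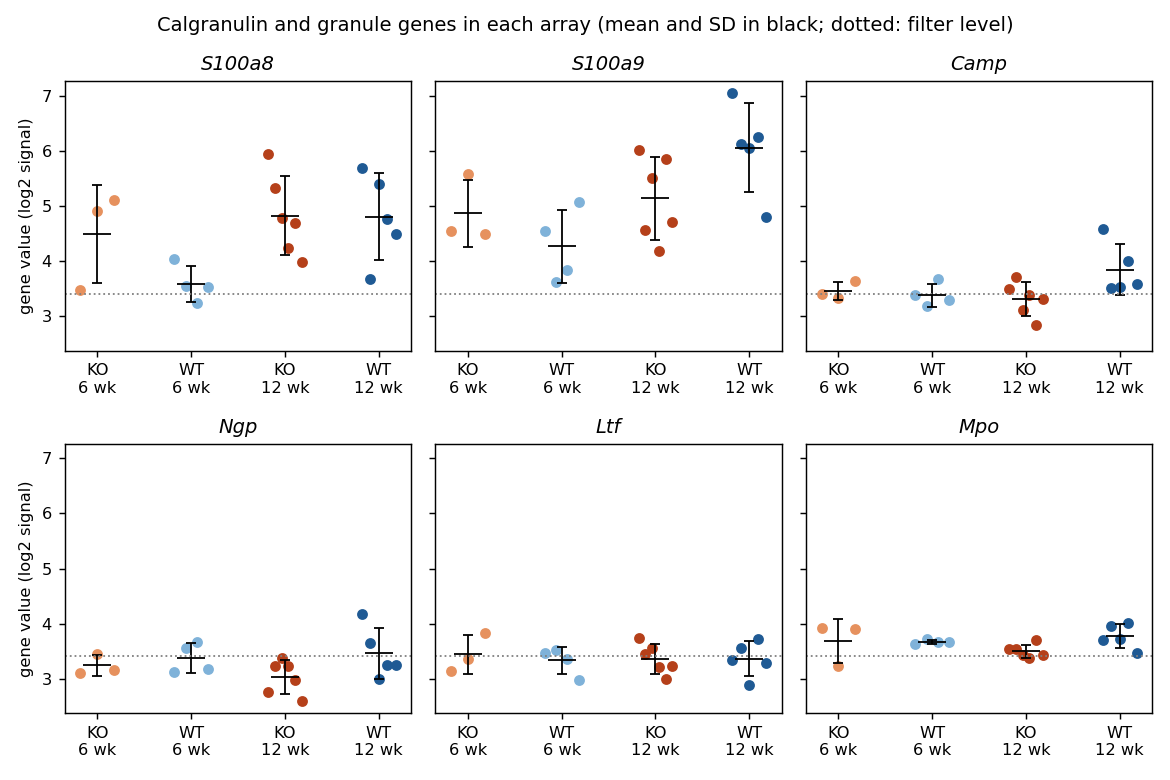
Gene values (log2 signal, vertical axis) of the 6 genes in every array of the 4 groups, with the group mean and SD in black and the filter level of 3.41 as a dotted line. S100a9 reached its highest values in WT at 12 weeks, while Ngp, Ltf and Mpo stayed between 2.60 and 4.17 in all arrays.

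KO was first set against WT at 6 weeks, to see whether these transcripts depend on TREM2 in the callosum of CPZ-fed mice. Both calgranulins had higher means in KO, with wide intervals, and the granule genes had nearly equal means. S100a8 had 3.47, 4.90 and 5.10 in KO arrays, against 4.03, 3.55, 3.24 and 3.54 in WT arrays. So 2 of 3 KO arrays lay above every WT array and the third lay among them. The log2 difference was 0.90 ± 0.47 (SE; 95% interval −0.09 to 1.89), short of limma's threshold (adjusted p = 0.94). S100a9 had 4.55, 5.57 and 4.49 in KO arrays, against 4.54, 3.62, 3.84 and 5.07 in WT arrays. Here 1 KO array lay above the WT range and the others within it, for a log2 difference of 0.61 ± 0.49 (SE; 95% interval −0.42 to 1.63; adjusted p = 0.999).

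Camp, which encodes the antimicrobial peptide precursor cathelicidin, averaged 3.46 ± 0.16 in KO and 3.38 ± 0.21 in WT (SD, n = 3 and 4). Ngp, a cystatin-related protein of granules, averaged 3.25 ± 0.19 in KO and 3.39 ± 0.27 in WT. Ltf, for the iron-binding protein lactoferrin, averaged 3.45 ± 0.36 in KO and 3.34 ± 0.25 in WT. Mpo, for the peroxidase that makes hypochlorous acid, averaged 3.69 ± 0.40 in KO and 3.67 ± 0.04 in WT. The 4 WT arrays of Mpo lay within 0.09 of each other, while the KO arrays had 3.93, 3.23 and 3.91, on both sides of them. Log2 differences of these 4 genes ran from −0.14 for Ngp to 0.11 for Ltf, each with an interval that includes 0. By limma's test 0 of the 4 tested members passed and 0 had an unadjusted p under 0.05, where 0.043% of all genes tested passed and 5.44% had such a p.

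At 12 weeks the same comparison gave lower means in KO for S100a9, Camp, Ngp and Mpo and nearly equal means for S100a8 and Ltf. S100a9 had a lowest value of 4.18, a median of 5.11 and a highest of 6.01 in the 6 KO arrays, against 7.04, 6.13, 6.05, 6.25 and 4.80 in the WT arrays. No KO array lay above the WT range and 3 of 6 lay below all of it, but WT replicate 5 fell among the KO arrays. The log2 difference was −0.92 ± 0.39 (SE; 95% interval −1.73 to −0.10), 1.89-fold lower in KO and short of limma's threshold (adjusted p = 0.388). Without WT replicate 1 it was −0.67 (adjusted p = 0.647).

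S100a8 had a lowest value of 3.99, a median of 4.73 and a highest of 5.94 in the KO arrays, against 5.68, 3.68, 5.39, 4.76 and 4.50 in the WT arrays. The ranges covered each other almost fully, and the log2 difference of 0.03 ± 0.38 (SE; 95% interval −0.76 to 0.81; adjusted p = 0.986) turned to −0.02 with accession run as a block and to −0.01 with array weights. Its interval includes differences in either direction, and without WT replicate 1 the difference was 0.24 (adjusted p = 0.895).

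Camp had a lowest value of 2.84, a median of 3.35 and a highest of 3.72 in the KO arrays, against 4.59, 3.51, 3.54, 4.00 and 3.58 in the WT arrays. Here 5 of 6 KO arrays lay below every WT array, and the sixth, replicate 2 at 3.72, lay among them. The log2 difference was −0.54 ± 0.20 (SE; 95% interval −0.96 to −0.12; adjusted p = 0.319), and without WT replicate 1 it was −0.35 (adjusted p = 0.588). Ngp ran from 2.60 to 3.38 with a median of 3.11 in KO arrays, against 4.17, 3.66, 3.00, 3.26 and 3.25 in WT arrays, with 3 KO arrays below the WT range. Its log2 difference of −0.44 ± 0.20 (SE; adjusted p = 0.468 without the filter) was −0.26 without WT replicate 1.

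Mpo averaged 3.51 ± 0.12 in KO and 3.77 ± 0.21 in WT (SD, n = 6 and 5), a log2 difference of −0.27 ± 0.15 (SE; adjusted p = 0.532), and 3 of 6 KO arrays lay below the WT range. Without WT replicate 1 the Mpo difference was −0.29 (adjusted p = 0.638). Ltf averaged 3.37 ± 0.27 in KO and 3.36 ± 0.32 in WT, and the difference without WT replicate 1 was 0.00. By limma's test 0 of the 4 tested members passed at 12 weeks, where 0.43% of all genes tested passed, in either direction. S100a9 and Camp, lower in KO, had an unadjusted p under 0.05, as did 4.23% of all genes tested in that direction. The ranges of KO and WT overlapped for all 6 members, and lay apart with KO lower in 0.762% of all genes tested. Of the 4 tested members 1 had a higher and 3 a lower mean in KO, against 8536 higher and 7745 lower of all genes tested, whose median log2 difference was 0.02.

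The accessions of the 12 week arrays fall into 2 runs, each with KO and WT, and nothing says that a run is a batch. Sex, read from sex-linked genes, was tied to both: one run held male KO and female WT arrays, the other female KO and male WT arrays. Within these runs the S100a9 difference was −1.22 (3 KO and 2 WT arrays) and −0.79 (3 and 3), and within females and males it was −1.67 (3 and 2) and −0.34 (3 and 3). Camp differed by −0.61 and −0.53 within the runs and by −0.87 and −0.27 within females and males. Ngp differed by −0.79 and −0.23 within the runs, and by −0.98 in females and −0.05 in males. S100a8 had no one direction, at 0.67 and −0.58 within the runs and −0.37 in females and 0.46 in males. The female WT arrays include replicate 1.

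**Figure D2:**
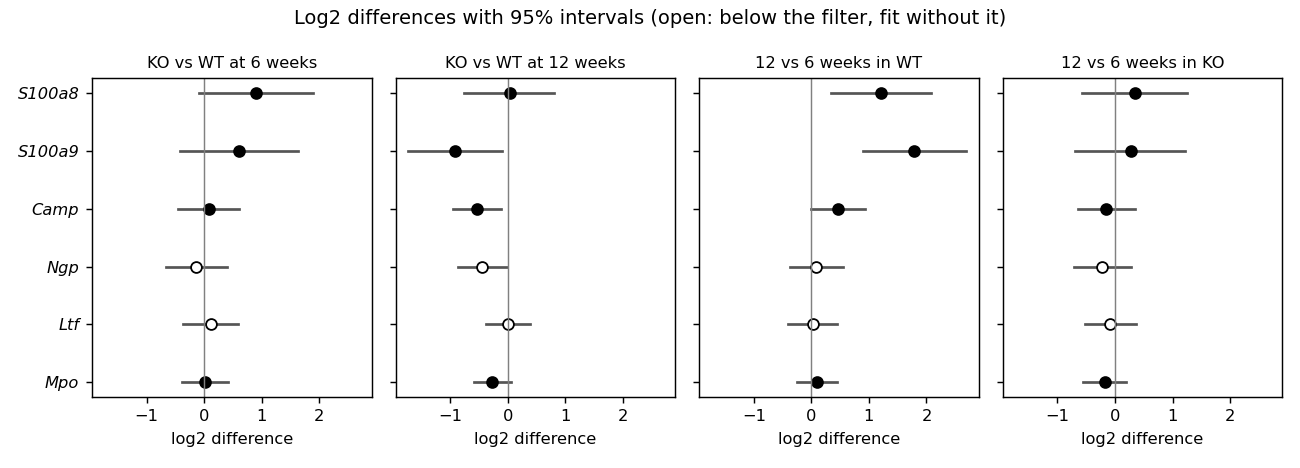
Log2 differences (horizontal axis) of the 6 genes in the 4 comparisons, KO minus WT or 12 minus 6 weeks, with 95% intervals; open points are the 2 genes below the filter, from the fit without it. Before adjustment over all genes, the S100a8 and S100a9 intervals for 12 against 6 weeks in WT lie above 0. Those of S100a9, Camp and Ngp for KO against WT at 12 weeks lie below 0. None of the differences passed after adjustment.

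The comparison of 12 with 6 weeks within a genotype asks how these transcripts differ between the stages. In WT both calgranulins had higher means at 12 weeks, and the granule genes differed by less. The 2 calgranulin differences were larger in size than those of any member in the other 3 comparisons of groups. S100a9 averaged 6.06 ± 0.80 at 12 weeks and 4.27 ± 0.66 at 6 weeks (SD, n = 5 and 4). In the arrays listed above, 4 of 5 at 12 weeks lay above all 4 at 6 weeks, and replicate 5, at 4.80, lay below the 5.07 of WT replicate 4 at 6 weeks. The log2 difference was 1.79 ± 0.43 (SE; 95% interval 0.89 to 2.69), 3.46-fold higher at 12 weeks, and short of limma's threshold (adjusted p = 0.239). It was 1.54 without replicate 1 of 12 weeks (adjusted p = 0.393), and leaving out each array in turn gave 1.54 to 2.10.

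S100a8 averaged 4.80 ± 0.78 at 12 weeks and 3.59 ± 0.33 at 6 weeks in WT. Again 4 of 5 arrays at 12 weeks lay above all at 6 weeks, and here replicate 2, at 3.68, fell among the 6 week arrays. The log2 difference was 1.21 ± 0.42 (SE; 95% interval 0.34 to 2.08), 2.31-fold higher at 12 weeks (adjusted p = 0.43), and without replicate 1 of 12 weeks it was 0.99 (adjusted p = 0.663). Camp averaged 3.85 ± 0.46 at 12 weeks and 3.38 ± 0.21 at 6 weeks, a log2 difference of 0.46 ± 0.22 (SE; adjusted p = 0.588) that was 0.27 without replicate 1 of 12 weeks. Log2 differences of Ngp, Ltf and Mpo were 0.08, 0.02 and 0.10, and without that replicate those of Ngp, Ltf and Mpo were −0.09, 0.03 and 0.12. By limma's test 0 of the 4 tested members passed in WT, where 0.0184% of all genes tested passed. Both calgranulins, higher at 12 weeks, had an unadjusted p under 0.05, as did 3.96% of all genes tested in that direction. All arrays of 6 weeks form an accession run of their own, so stage and run cannot be told apart. Within females the S100a9 and S100a8 differences were 2.13 and 1.29 (2 arrays at each stage), and within males 1.62 and 1.09 (3 arrays at 12 weeks and 2 at 6).

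In KO the calgranulins had smaller mean differences between stages, a contrast given below with its own test. S100a9 averaged 5.14 ± 0.75 at 12 weeks and 4.87 ± 0.61 at 6 weeks (SD, n = 6 and 3), a log2 difference of 0.27 ± 0.46 (SE; 95% interval −0.69 to 1.22; adjusted p = 0.92). S100a8 averaged 4.83 ± 0.71 at 12 weeks and 4.49 ± 0.89 at 6 weeks, a difference of 0.34 ± 0.44 (SE; 95% interval −0.58 to 1.26; adjusted p = 0.887) that was −0.17 without KO replicate 1 of 6 weeks. For each of them 2 of 6 arrays at 12 weeks lay above the 6 week range. The granule genes had lower means at 12 weeks, by −0.15 for Camp, −0.22 for Ngp, −0.08 for Ltf and −0.18 for Mpo. By limma's test 0 of the 4 tested members passed and 0 had an unadjusted p under 0.05, against 0.00614% and 7.49% of all genes tested.

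Whether the stage difference itself differed between genotypes was tested as an interaction. For S100a9 the stage difference in KO minus that in WT was −1.52 ± 0.63 (SE; 95% interval −2.83 to −0.21) also short of limma's threshold (adjusted p = 0.92). For S100a8 it was −0.87 ± 0.61 (SE; adjusted p = 0.963) and for Camp −0.61 ± 0.32 (SE; adjusted p = 0.926). Without WT replicate 1 of 12 weeks these differences were −1.28 for S100a9, −0.66 for S100a8 and −0.43 for Camp, each with an adjusted p of 0.999. By limma's test 0 of the 4 tested members passed, as did 0% of all genes tested. S100a9 had an unadjusted p under 0.05 in the lower direction, with 2.32% of all genes tested. The 4 comparisons share groups of arrays, so their values for a gene are not independent of each other.

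Across the 18 arrays the calgranulins went up and down together in part. Pearson's r between S100a8 and S100a9 was 0.60 (permutation p = 0.00902, or 0.135 adjusted over the 15 pairs of members) and Spearman's rho was 0.53 (permutation p = 0.0263, or 0.394 adjusted). Without the 2 arrays farthest from the median of S100a8 r was 0.51, and after subtracting group means it was 0.45. Camp and Ngp had r = 0.53 (permutation p = 0.0288, or 0.216 adjusted) and rho = 0.32 (permutation p = 0.197, or 0.642 adjusted), and r was 0.03 without the 2 arrays farthest from the median of Camp and 0.14 without WT replicate 1 of 12 weeks, so the relation rests on those arrays. The other 13 pairs had r between −0.19 and 0.39.

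**Figure D3:**
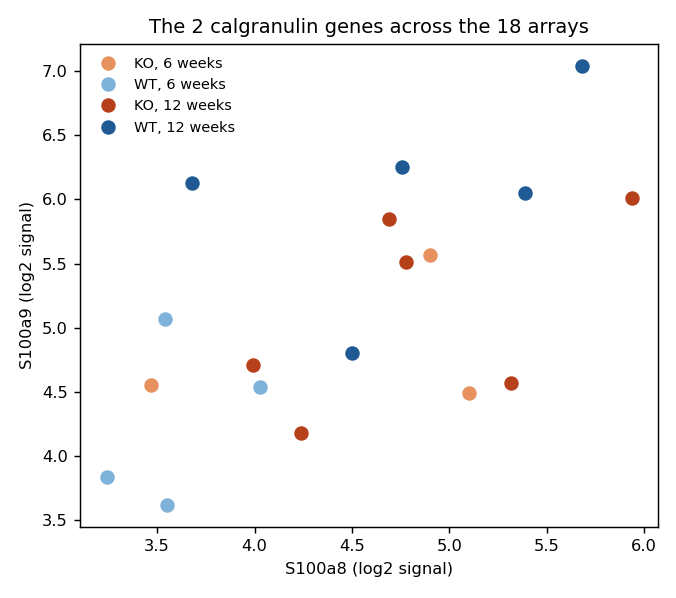
S100a8 (horizontal axis) against S100a9 (vertical axis), both as log2 signal, with 1 point per array coloured by group. The 4 WT arrays of 6 weeks lie at the low end of S100a8, between 3.24 and 4.03, and WT replicate 1 of 12 weeks has the highest S100a9 at 7.04.

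The genes whose values followed the mean centred log2 of the 2 calgranulins most closely, among 15204 ranked over the 18 arrays, were Sdr39u1 (r = 0.75), Mtfmt (r = 0.75), Aggf1 (r = 0.73), Fgfr1op2 (r = 0.72) and Sdf2 (r = 0.71). No listed neutrophil gene was among these 5, and members were passed over. Only genes that passed the filter were ranked. Listed neutrophil genes below it, among them Ly6g, Cxcr2, Retnlg and Mmp8, could therefore not appear. Their absence does not show whether they followed the members. Closest to the mean centred log2 of Camp, Ngp and Ltf were Tas1r2 (r = 0.87), Snora5c (r = 0.84), Ocel1 (r = 0.80), Col19a1 (r = 0.79) and Adam33 (r = 0.76). None of them is a listed neutrophil gene either. Without WT replicate 1 of 12 weeks r was 0.77, 0.72, 0.63, 0.81 and 0.72 for these 5, in this order. For the 5 genes of the calgranulin profile it was then 0.70, 0.76, 0.77, 0.69 and 0.63. Tas1r2, Snora5c and Ocel1 had their highest value in that array. The arrays share group and hybridisation differences, and the top of so long a ranking is high by selection.

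Single probe sets show how far the gene medians rest on parts of each gene. The 2 probe sets of S100a9 both differed in the direction of the gene in WT, by 2.59 ± 0.75 and 0.99 ± 0.31 (log2, SE) at 12 against 6 weeks. For KO against WT at 12 weeks they differed by −0.76 ± 0.67 and −1.08 ± 0.28. For KO against WT at 6 weeks they went in opposite directions, by 1.33 ± 0.85 and −0.12 ± 0.35. Those of S100a8 differed by 1.40 ± 0.60 and 1.02 ± 0.50 at 12 against 6 weeks in WT, and by 0.19 ± 0.54 and −0.14 ± 0.45 for KO against WT at 12 weeks. All 4 probe sets of Camp were lower in KO at 12 weeks, by −0.20 to −0.78, and 4 of the 5 of Ngp were lower, with the fifth at 0.10. The 19 probe sets of Ltf ran from −0.75 to 0.59 and the 14 of Mpo from −1.56 to 0.28 in that comparison. With every probe set tested on its own, 23 member probe sets passed the filter and 0 passed limma's test in any comparison.

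WT replicate 1 of 12 weeks was the highest of the 18 arrays in 12 of the 46 member probe sets, at least 1 in each gene, and in 6.19% of all 212097 probe sets with 1 gene symbol, as a description of an array chosen after its values were seen. The S100a9 probe set with the larger stage difference stood at 8.47 in that array, against at most 6.97 in the other 17. An Ngp probe set stood at 7.27 against at most 5.35, an Mpo probe set at 6.70 against at most 4.75, and 2 Ltf probe sets at 7.33 and 7.53 against at most 6.28 and 6.21. The medians of Ltf and Mpo in this array were 3.34 and 3.70 and lay inside the range of the others. Of their probe sets, 4 of 19 for Ltf and 2 of 14 for Mpo were highest there. The array was also the lowest of the 18 in an Ltf probe set, at 4.71, and in an Mpo probe set, at 3.51. Among other neutrophil genes the array was also highest of the 18 in Prtn3 (4.59), Wfdc21 (5.23) and Itgb2l (4.82) and in the granulocyte factor Cebpe (4.75), but not in Ly6g (2.53), Lcn2 (5.24) or Mmp8 (2.70). These are 4 of the 34 measured genes (11.8%) in the 4 neutrophil lists without the members, against 5.1% of all genes tested. They are 1 of 3 azurophil granule genes, 0 of 8 specific and gelatinase granule genes, 2 of 17 surface and cytosol genes and 1 of 6 granulopoiesis factors. The array was the lowest of the 18 in 1 of the 34, Spi1 (3.96), against 7.22% of all genes tested. The 34 include genes below the filter, which the shares of all genes tested leave out, so these shares have unlike bases. Prtn3, Wfdc21, Itgb2l, Cebpe and Spi1 all passed the filter.

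**Figure D4:**
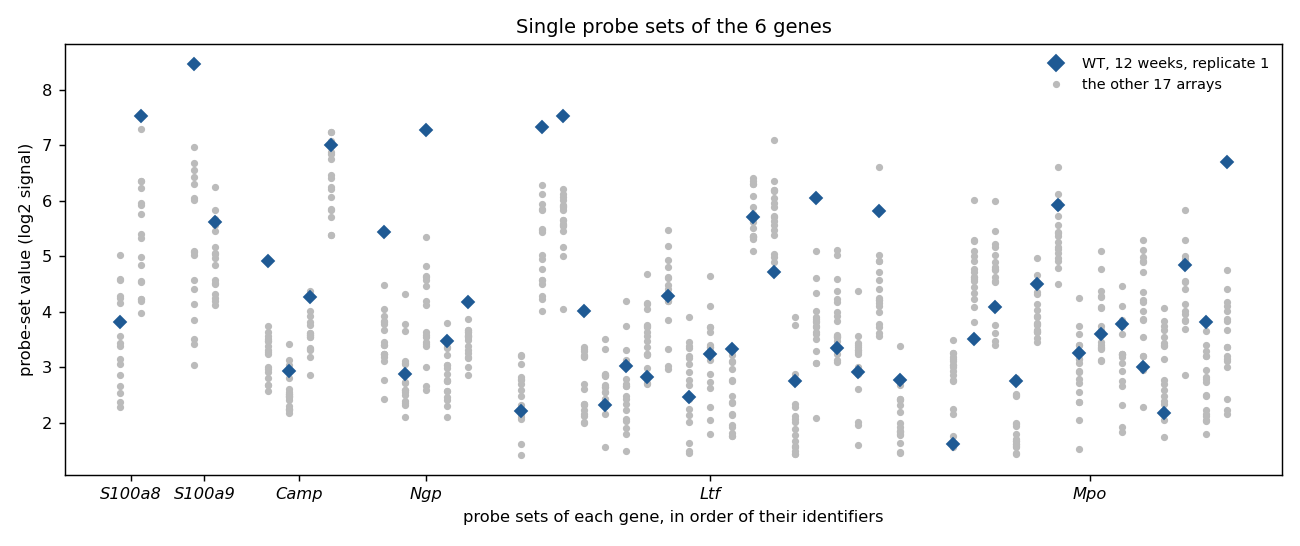
Log2 signal (vertical axis) of all 46 probe sets of the 6 genes, in order of their identifiers within a gene; blue diamonds are WT replicate 1 of 12 weeks and grey points the other 17 arrays. The diamond is the highest point in 12 probe sets, among them 1 of S100a9 at 8.47 and 1 of Ngp at 7.27.

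The rest of the neutrophil programme was read from lists of genes. Of 6 tested specific and gelatinase granule genes, 0 passed limma's test in any comparison. At an unadjusted p under 0.05 there was 1 lower in KO at 6 weeks (Lcn2), 1 higher in KO at 12 weeks (Olfm4) and 2 lower at 12 weeks in WT (Lcn2 and Mmp9), with 2.17%, 6.87% and 4.51% of all genes tested in those directions. In the interaction 2 were higher, Olfm4 at 1.14 ± 0.44 and Mmp9 at 0.62 ± 0.28 (log2, SE; adjusted p = 0.905 and 0.92), with 2.87% of all genes tested. Lcn2, for the siderophore-binding lipocalin of specific granules that astrocytes also make, averaged 4.68 ± 0.59 at 12 weeks and 6.31 ± 0.80 at 6 weeks in WT (SD, n = 5 and 4), a log2 difference of −1.63 ± 0.49 (SE; adjusted p = 0.33). Mmp9, for gelatinase B, averaged 3.34 ± 0.35 at 12 weeks and 4.04 ± 0.31 at 6 weeks in WT, a difference of −0.70 ± 0.20 (SE; adjusted p = 0.288). Without WT replicate 1 of 12 weeks these differences were −1.76 for Lcn2 and −0.74 for Mmp9 (adjusted p = 0.464 and 0.393). Both thus had lower means at the stage where the calgranulins had higher ones. The median log2 difference of these 6 genes for 12 against 6 weeks in WT was −0.48, that of the 2 calgranulins 1.50 and that of all genes tested 0.01.

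Of the 6 tested surface and cytosol genes of neutrophils, 0 passed in any comparison, with medians of 0.14 for KO against WT at 6 weeks, −0.19 at 12 weeks and 0.14 for 12 against 6 weeks in WT. All 6 transcription factors of granulocyte development were tested and 0 passed. Spi1, for PU.1, which microglia also express, came nearest, with a log2 difference of KO from WT at 12 weeks of 1.35 ± 0.38 (SE; adjusted p = 0.149) that was 0.96 (adjusted p = 0.351) without WT replicate 1, the lowest array for this gene at 3.96. Of the 5 tested receptors of the calgranulins, 0 passed, and the TLR4 gene differed by 0.73 ± 0.39 at 6 weeks (SE; adjusted p = 0.94) and 0.50 ± 0.31 at 12 weeks (SE; adjusted p = 0.573). Of 11 other S100 genes tested, 0 passed in any comparison, with medians of 0.20 and 0.23 for KO against WT at 6 and 12 weeks and 0.08 for 12 against 6 weeks in WT.

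Among 5 tested signals that draw or raise neutrophils, Cxcl5, a chemokine that acts on the receptor CXCR2, passed in 1 comparison. It had a lowest value of 5.74, a median of 6.47 and a highest of 6.67 in the 6 KO arrays at 12 weeks, against 4.10 to 5.21 with a median of 4.25 in the 5 WT arrays. The groups did not overlap, as in 1.7% of all genes tested in that direction, and the log2 difference was 1.81 ± 0.34 (SE; adjusted p = 0.0282). The size stayed between 1.70 and 2.05 in all alternatives, but the call was lost with the replicate number as a block (adjusted p = 0.0982) and when any 1 of 9 arrays of 12 weeks was left out, KO replicates 2 to 6 or WT replicates 1, 3, 4 or 5 (adjusted p = 0.0514 to 0.0875, and 0.0571 without WT replicate 1). At 6 weeks Cxcl5 averaged 5.40 ± 0.74 in KO and 5.81 ± 0.99 in WT (SD, n = 3 and 4). At 12 weeks Cxcl5 thus had its higher mean in KO, where S100a9 and Camp had their lower ones. The other 4 tested signals did not pass, and the neutrophil chemokine gene Cxcl1 differed by −0.32 ± 0.26 at 12 weeks (SE; adjusted p = 0.673).

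Markers of other blood and tissue cells are given beside these results. Of 3 tested red cell genes and 6 platelet genes, 0 passed in any comparison, and the same held for 5 monocyte and 4 B lineage genes. The summed log2 of the 4 measured red cell genes ran from 13.27 to 14.18 in KO and from 13.91 to 16.03 in WT at 12 weeks. The globin gene Hbb-b1, added after the data were seen, averaged 7.81 ± 0.59 in KO and 7.01 ± 1.03 in WT at 12 weeks (SD, n = 6 and 5), and 8.26 ± 1.55 in KO and 7.07 ± 1.07 in WT at 6 weeks (SD, n = 3 and 4). Monocytes can carry calgranulin transcripts, and the summed log2 of 8 monocyte genes ran from 28.84 to 35.22 in KO and from 29.83 to 33.65 in WT at 12 weeks. In WT it ran from 29.83 to 33.65 at 12 weeks and from 30.64 to 35.65 at 6 weeks, while the summed log2 of the calgranulins ran from 9.30 to 12.72 and from 7.08 to 8.60. All 7 tested microglia markers had higher means in KO at both stages. Of them 3 passed at 6 weeks and 5 at 12 weeks, against 0.043% and 0.43% of all genes tested. These counts were 0 to 3 and 2 to 6 when an array was left out (0 without WT replicate 1 of 6 weeks, 2 without WT replicate 1 of 12 weeks). With only the groups compared 0 passed at 6 weeks and 7 at 12 weeks, and with the replicate block 0 and 3. The white matter markers, which are myelin genes and the astrocyte gene Gfap, differed between stages in their means. In WT all 5 tested had lower means at 12 weeks, with a median log2 difference of −1.65, and 0 passed limma's test. Of these, Mag differed by −2.05 ± 0.61, Mog by −1.81 ± 0.57 and Mobp by −1.65 ± 0.49 (log2, SE, adjusted p = 0.323, 0.347 and 0.318). These 3 had an unadjusted p under 0.05, as did 4.51% of all genes tested in that direction. Without WT replicate 1 of 12 weeks the 3 differences were −1.74, −1.73 and −1.40 (adjusted p = 0.548, 0.535 and 0.535). The summed log2 of the 5 genes ran from 38.93 to 46.58 at 12 weeks and from 44.68 to 53.20 at 6 weeks in WT, and from 40.08 to 47.94 at 12 weeks and from 43.47 to 51.15 at 6 weeks in KO. For KO against WT the median of the 5 was −0.55 at 6 weeks and 0.19 at 12 weeks, with 0 passed and 1 at each stage, Gfap, higher in KO at an unadjusted p under 0.05. The part of these markers, of the microglia markers and of blood in the tissue, in the calgranulin values was not tested.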

How the data were processed

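Per the labels' protocols, column-purified RNA was carried through a whole-transcript Pico amplification and biotin labelling. The values are the authors' deposited log2 probe-set signals, 241576 probe sets in 18 arrays. The sources used here give no background correction, normalization or probe summary. Since medians per array lay between 5.26 and 5.41, the deposited log2 values were used as they are. The number of arrays, not a read depth, limits the precision.

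Probe sets were named from the platform annotation (212097 with 1 symbol, 4475 with several, 25004 with none; only the first were used), and 2742 symbols were updated through the RefSeq table of GRCm38.p6. Gene values are medians of probe sets, and the lowest 20% of 20352 genes by mean were left out, leaving 16281. Genotype and stage labels define the groups. A single limma model (3.58.1, R 4.3.3) with 4 group means over 18 arrays gave all two-sided comparisons. It had 14 residual and 5.61 prior degrees of freedom. Benjamini-Hochberg adjustment ran over all genes tested, with a threshold of 0.05, and "passed" means this test. Printed adjusted p-values come from this model, except where a fit without the filter, a refit or a correlation is named beside them. The steps were tested on simulated data. Correlations used 100000 permutations.

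The members and lists were chosen with earlier results of these data known. The text names the 6 genes, up to 3 of each list by smallest p, the 5 genes most like 2 member profiles, and Trem2; genes named for their level in all arrays or in 1 array, and Hbb-b1, were chosen after their values were seen. Alternatives changed the gene summary (mean or brightest probe set), filter, normalization, variance prior, array weights, samples, blocks, sex, threshold, or left out 1 array; probe-set testing and leaving out 2 arrays of low weight were added after seeing the data. Xist and Y-linked genes gave the sex. Replicate numbers are not shown to pair samples. Python 3.11.15, scipy 1.17.1, pandas 2.3.3, numpy 2.4.6 and matplotlib 3.10.9 were used.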

Additional observations from a re-analysis of the deposited data

How the results depend on the processing

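In all alternatives run, 0 of the tested members passed limma's test in any comparison, including each array left out, probe sets tested singly and an adjusted p under 0.1. S100a9 kept its direction in all fits to gene values, while its 2 probe sets differed in direction for KO against WT at 6 weeks. KO against WT at 12 weeks ran from −0.99 to −0.76 over the settings and from −1.23 to −0.67 with an array left out, and 12 against 6 weeks in WT from 1.79 to 2.59 and from 1.54 to 2.10. S100a8 for 12 against 6 weeks in WT ran from 1.17 to 1.50 and from 0.99 to 1.49, and Camp for KO against WT at 12 weeks from −0.57 to −0.46 and from −0.62 to −0.35. Of 830 refitted differences of the members, Cxcl5 and Spi1, 37 changed sign, 10 (all of Cxcl5) lost the call and 783 kept direction and side of the threshold; the cause was not tested. Cxcl5 for KO against WT at 12 weeks ran from 1.70 to 1.98 with an array left out, with the replicate block at 1.75.

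Signs turned only where the difference was at most 0.34 in size. The block for accession run set apart only the 2 runs of 12 weeks, so differences between stages were not adjusted for run. With it, S100a8 for KO against WT at 12 weeks became −0.02, Ltf in that comparison −0.02, Ngp for 12 against 6 weeks in KO 0.00 and Ltf there 0.07. With array weights S100a8 for KO against WT at 12 weeks became −0.01 and Ltf for 12 against 6 weeks in WT −0.05. With the brightest probe set Ngp and Mpo for KO against WT at 6 weeks became 0.31 and −0.06, Ltf for 12 against 6 weeks in WT −0.50 and Mpo for 12 against 6 weeks in KO 0.26. With the mean of probe sets Ngp and Mpo for KO against WT at 6 weeks became 0.06 and −0.02 and Ltf for KO against WT at 12 weeks −0.11. Ltf for 12 against 6 weeks in WT became −0.01 with quantile normalization and −0.10 without the 2 arrays of lowest weight. With an array left out, S100a8 ran from −0.26 to 0.24 for KO against WT at 12 weeks and from −0.17 to 0.64 for 12 against 6 weeks in KO, Camp from −0.01 to 0.17 for KO against WT at 6 weeks, Ngp from −0.09 to 0.20 for 12 against 6 weeks in WT, Ltf from −0.09 to 0.26 and −0.11 to 0.10 for KO against WT at 6 and 12 weeks and from −0.10 to 0.14 and −0.23 to 0.12 for 12 against 6 weeks in WT and KO, and Mpo from −0.10 to 0.25 for KO against WT at 6 weeks.

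The background counts moved more. For KO against WT at 6 weeks 7 genes passed, against 0 with only the groups compared, 0 with the replicate block, 13 at an adjusted p under 0.1 and 0 to 11 with an array left out. At 12 weeks 70 passed, against 190 with array weights, 107 with the mean of probe sets, 237 with only the groups compared, 42 with quantile normalization, 21 with the replicate block, 215 without the 2 arrays of lowest weight, 153 at an adjusted p under 0.1 and 15 to 126 with an array left out (17 without WT replicate 1 of 12 weeks). For 12 against 6 weeks in WT 3 passed, against 1 with the 2 runs of 12 weeks as a block, 1 with the brightest probe set, 5 with the mean of probe sets, 1 with only the groups compared, 0 with the replicate block, 7 with sex, 9 at an adjusted p under 0.1 and 1 to 6 with an array left out. In KO 1 passed, against 3 with the brightest probe set, 3 with the mean of probe sets, 0 with only the groups compared, 2 with the replicate block, 0 without the 2 arrays of lowest weight and 1 to 5 with an array left out. Samples of 1 number correlated from −0.359 to 0.241 in their deviations from group means, and under the replicate block Ltf for 12 against 6 weeks in KO was 0.03.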
